A study of Homo sapiens with 18 samples.

Results

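Gene expression was compared between AMO1 cells kept in 1000 nM YKL-5-124 and AMO1 cells kept in the solvent DMSO, for 24 h in both groups. AMO1 is an established line of multiple myeloma, a cancer of plasma cells, and YKL-5-124 is a covalent inhibitor of the kinase CDK7. The 2 groups hold 3 libraries each, 6 of the 18 libraries of the series, and were chosen by their labels for line, dose and time. The other 12 libraries are AMO1 at 100 nM and a second line, XG1, in DMSO and at both doses. All 6 libraries were made from total RNA of the same parental line, with no genetic change named in the labels, by a 3′ messenger RNA protocol (QuantSeq) that primes on poly(A). Replicates carry numbers only, with nothing on whether they were separate cultures, so every p-value measures only the spread between these samples, which may be technical. A single cell line was treated, and bulk RNA was measured.

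CDK7 forms a trimeric kinase with cyclin H (CCNH) and the assembly factor MAT1 (MNAT1). In this form it activates the cyclin-dependent kinases of the cell cycle, and as part of the general transcription factor TFIIH it phosphorylates the tail of RNA polymerase II as transcription starts. Cell-cycle genes are controlled largely by E2F factors at the start of DNA replication and by the MuvB complex with MYBL2 and FOXM1 before mitosis, while plasma cells depend on IRF4, PRDM1 and XBP1 for their identity and for antibody secretion.

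The deposited values were FPKM, which appear to have been rescaled to ERCC spike-in RNAs. The summed spike-ins were 171365 ± 4051 FPKM at 1000 nM and 174496 ± 1696 FPKM in DMSO (mean ± SD, n = 3 each), 98.2% of DMSO. The step at which the spike-ins were added and the read depth are unstated. On this deposited scale the summed FPKM of genes was 686266, 431965 and 683618 in replicates 1, 2 and 3 at 1000 nM, against 1442943, 1548381 and 1553906 in DMSO. All 3 treated libraries lay below all 3 DMSO libraries, and replicate 2 was the lowest. The treated mean was 39.6% of the DMSO mean (exact two-sided permutation test, p = 0.1, the smallest p that 3 against 3 can give). In bulk RNA, fewer cells and less RNA per cell cannot be told apart. Plasma cell markers summed to between 5247 and 8152 FPKM per library at 1000 nM and between 8343 and 9381 FPKM in DMSO, with all 10 at or above 1 FPKM in both groups. Most of each sum was SDC1, which averaged 5468 FPKM at 1000 nM and 5067 FPKM in DMSO. By the test and the 2 scales described below, 6 of the 10 markers were lower on the deposited scale (median change −1.25). On the relative scale 4 were higher and 6 lower. The erythroid, T and NK cell, myeloid, stromal and epithelial marker lists summed to at most 15.6 FPKM in any of the 6 libraries. Stromal markers summed to between 3.50 and 7.70 FPKM at 1000 nM and between 1.75 and 3.001 FPKM in DMSO, and epithelial markers to between 1.58 and 2.26 FPKM at 1000 nM and between 3.54 and 4.602 FPKM in DMSO. Their part in the results was not tested.

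Most genes were lower, so changes are reported on 2 scales: the deposited scale, and a relative scale in which every library was divided by its median-ratio size factor, so that a change is relative to the median gene. A gene is called changed where its Benjamini-Hochberg adjusted p from limma is under 0.05 over the 10503 tested genes. Every adjusted p below is from that fit, every change is a difference of log2(FPKM + 1), 1000 nM minus DMSO, and low genes are understated by the added 1. On the deposited scale 68.2% were called: 264 genes were higher (2.51%) and 6900 lower (65.7%). On the relative scale 48.0% were called: 2472 were higher (23.5%) and 2569 lower (24.5%). These percentages are the background against which the count of any gene group is read, but they depend on level. On the relative scale 5.8% of tested genes averaging under 2 FPKM over both groups were lower. That share was 25.1% at 5 to 20 FPKM, 49.0% at 100 to 500 FPKM and 54.0% at 500 FPKM and more. On the deposited scale the same shares were 31.6%, 73.2%, 88.4% and 92.7%. The gene lists below were not matched for level. The median gene changed by −0.77 on the deposited scale and by 0.01 on the relative scale. Of the 2472 genes higher on the relative scale, 261 were also called higher on the deposited scale, 288 were called lower there and 1923 were not called there. A second way of setting the relative scale, by summed FPKM, raised relative changes by about 0.34 and gave 4569 higher and 1247 lower genes. Median-ratio factors were also taken over all genes, including those at a low value shared by many genes of a library. These factors lowered relative changes by about 0.67 and gave 452 higher and 4941 lower genes. The relative scale lay about 0.83 above the deposited scale, so changes by these factors were close to the deposited ones. The sign of a relative change therefore holds only under a stated scaling, and the signs that turned are listed at the end.

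**Figure D1:**
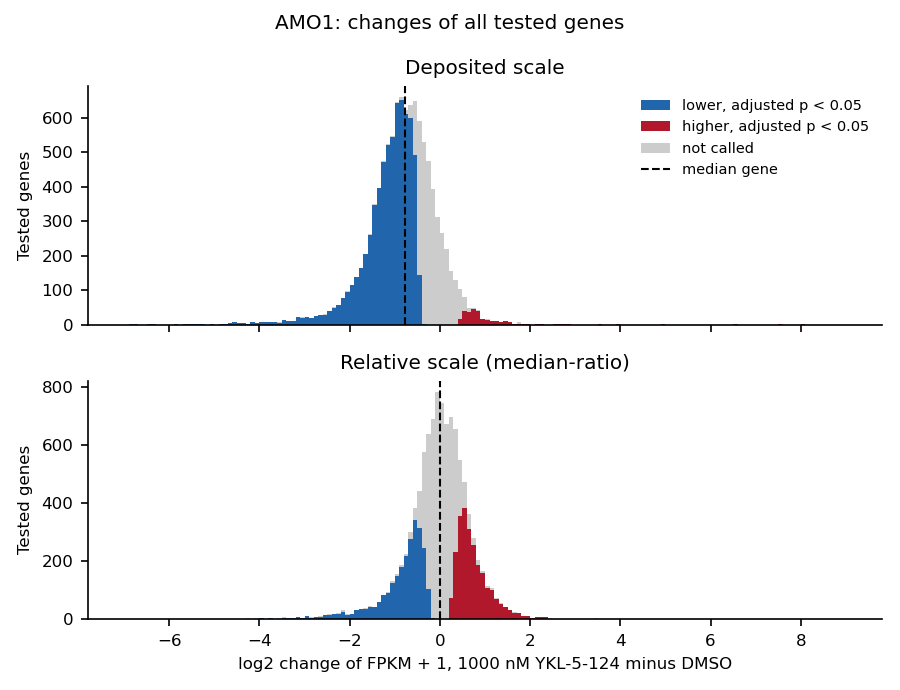
Histograms of the log2 change of FPKM + 1 (1000 nM YKL-5-124 minus DMSO, x axis) over the 10503 tested genes (y axis, number of genes), on the deposited scale above and the relative scale below. Blue and red bars are genes called lower and higher, and the dashed line is the median gene, at −0.77 on the deposited scale and 0.01 on the relative scale.

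The fall was not even across genes. Among tested genes averaging under 2 FPKM over both groups the median change was −0.28 on the deposited scale, among those of 5 to 20 FPKM −0.87, and among those of 500 FPKM and more −1.24. The added 1 understates changes at the low end. The median change of long noncoding RNAs was nearer to 0 than that of protein-coding genes in each level range under 100 FPKM: between 5 and 20 FPKM their median changes were −0.30 (79 genes) and −0.89 (2996 genes). Between 100 and 500 FPKM it was not, at −1.34 (10 genes) and −1.24 (602 genes). Between 5 and 20 FPKM 16.5% of long noncoding RNAs and 1.54% of protein-coding genes were called higher on the deposited scale. Between 100 and 500 FPKM these shares were 0% and 1.5%. How reads were assigned to strands is unstated, so reads of an antisense RNA and its partner gene cannot be told apart. Called decreases larger than 2 log2 units were seen for 588 genes on the deposited scale, against 12 called increases of that size.

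**Figure D2:**
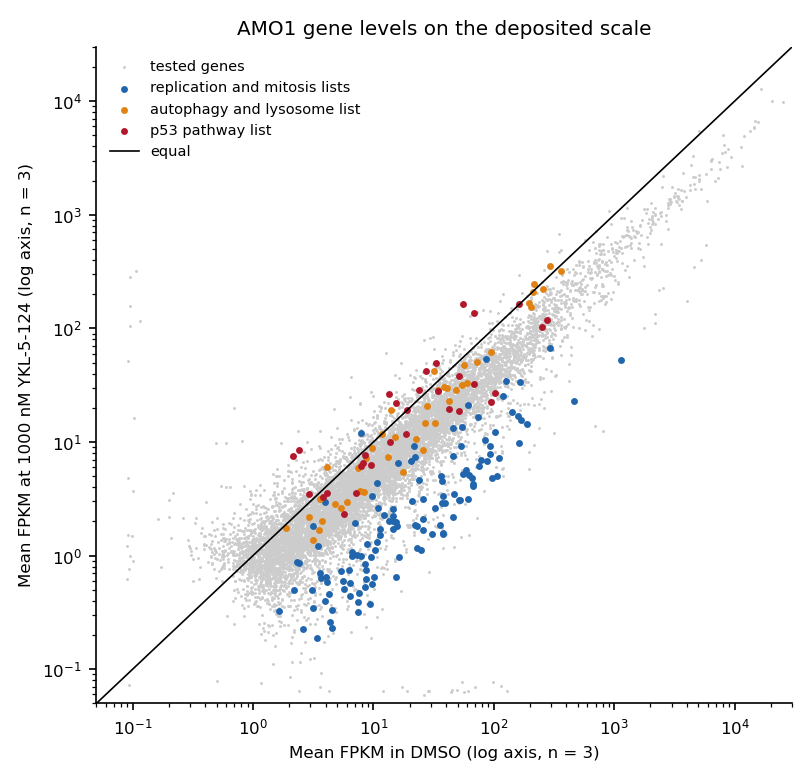
Mean FPKM at 1000 nM YKL-5-124 (y axis, log) against mean FPKM in DMSO (x axis, log) for the tested genes on the deposited scale, n = 3 each, with the line of equal values. Members of 4 replication and mitosis lists (blue) lie under the cloud of all genes (grey), 122 of 123 of them below the line of equal values, while members of the lysosome (orange) and p53 (red) lists lie nearer to it by their median changes of −0.45 and −0.30.

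The drug's own target was measured first. CDK7 had 8.05, 6.33 and 6.203 FPKM in replicates 1, 2 and 3 at 1000 nM, against 15.4, 16.2 and 18.96 FPKM in DMSO. The groups did not overlap, and CDK7 fell on the deposited scale (change −1.19, SE 0.19, adjusted p = 0.00011) but was not called on the relative scale (−0.30, SE 0.17, adjusted p = 0.183). An inhibitor of the protein does not remove its messenger RNA, so these levels say nothing of kinase activity. CCNH had 18.6, 8.28 and 15.1 FPKM at 1000 nM and 26.2, 23.6 and 24.7 FPKM in DMSO, and MNAT1 10.4, 3.49 and 6.66 FPKM at 1000 nM and 13.5, 15.04 and 16.1 FPKM in DMSO. Both fell on the deposited scale (changes −0.85 and −1.11, adjusted p = 0.0069 and 0.00247), and neither was called on the relative scale (0.07 and −0.25). CCNH was called higher after division by summed FPKM (0.44, adjusted p = 0.0172), and without treated replicate 1 MNAT1 was called lower on the relative scale (−0.49, adjusted p = 0.0257). With factors over all genes CDK7 was called lower (−1.01, adjusted p = 0.0135). Of the 9 tested genes of the CDK7 kinase and TFIIH, 7 were lower on the deposited scale, and 2 were higher and 2 lower on the relative scale. GTF2H4, a TFIIH core subunit, was the lowest of them (4.33 ± 0.626 FPKM at 1000 nM and 13.5 ± 3.28 FPKM in DMSO, relative change −0.57, adjusted p = 0.00575).

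Subunits of RNA polymerase II moved in opposite directions. POLR2A, the catalytic subunit whose tail CDK7 phosphorylates, had 93.8, 63.04 and 100.5 FPKM at 1000 nM and 51.4, 62.5 and 50.2 FPKM in DMSO. Every treated library lay above every DMSO library, and the gene rose on both scales (deposited 0.62, SE 0.21, adjusted p = 0.0196; relative 1.58). POLR2H, a small subunit shared by the nuclear polymerases, had 51.5, 29.9 and 47.8 FPKM at 1000 nM and 188, 200.2 and 203 FPKM in DMSO, and fell by 2.21 on the deposited and by 1.25 on the relative scale (adjusted p = 1.92e-06 and 5.60e-06). Of 12 subunits, 1 was higher and 10 were lower on the deposited scale, and 2 were higher and 5 lower on the relative scale. GTF2A1, which encodes part of the initiation factor TFIIA, also rose: it had 24.96, 12.2 and 25.6 FPKM at 1000 nM and 10.2, 10.9 and 12.1 FPKM in DMSO (deposited 0.80, adjusted p = 0.0116; relative 1.70). It was the only one of 21 tested initiation factor and TFIID genes called higher on the deposited scale, where 15 were lower, and without a filter on low values its deposited call was lost (0.80, adjusted p = 0.0504). Replicate 2 was the lowest treated library for both genes. POLR2A was no longer called on the deposited scale without treated replicate 1 (0.54), treated replicate 3 (0.49), DMSO replicate 1 (0.58) or DMSO replicate 3 (0.56), with adjusted p between 0.0584 and 0.0775, nor when only the 6 libraries compared were fitted (adjusted p = 0.0539), and stayed called on the relative scale.

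Among factors that act after initiation, pausing and elongation genes were called in shares near those of all tested genes. Of 34 such genes 23 fell on the deposited scale (67.6%, against 65.7% of all tested genes). On the relative scale 9 were higher (26.5%, against 23.5%) and 8 lower (23.5%, against 24.5%). HEXIM1, the inhibitor of the elongation kinase P-TEFb, had 14.4, 7.396 and 13.3 FPKM at 1000 nM and 10.8, 13.2 and 11.4 FPKM in DMSO. These overlap, and HEXIM1 was higher only on the relative scale (0.83, adjusted p = 0.000928). SSRP1, a subunit of the histone chaperone FACT that lets polymerase pass nucleosomes, fell on both scales, with 50.5 ± 15.2 FPKM at 1000 nM and 203 ± 21.3 FPKM in DMSO (deposited −2.03, relative −1.07, adjusted p = 5.98e-05). CDK9, the kinase of P-TEFb, was not called on either scale (3.08 ± 1.22 FPKM at 1000 nM and 4.21 ± 0.564 FPKM in DMSO), and the elongation kinase CDK12 fell on the deposited scale only (−0.59), and not without DMSO replicate 3 (−0.57, adjusted p = 0.0523). Mediator, which links activators to the polymerase, had 25 of 30 genes lower on the deposited scale, and 2 higher and 6 lower on the relative scale. For Integrator and the 3′-end processing genes the counts were 27 lower of 30, and 3 higher and 12 lower. RBBP6, a 3′-end processing factor, stood out at the upper end of that list (24.8, 19.9 and 29.2 FPKM at 1000 nM and 16.99, 20.04 and 18.1 FPKM in DMSO, relative 1.32, not called on the deposited scale). The machinery of RNA polymerases I and III, which make ribosomal and transfer RNA, fell more: 32 of 34 were lower on the deposited scale, and 1 was higher and 20 were lower on the relative scale, with TAF1D, part of the polymerase I initiation factor, at 9.52 ± 3.33 FPKM at 1000 nM against 44.2 ± 4.04 FPKM in DMSO (relative −1.24, adjusted p = 0.000132).

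**Figure D3:**
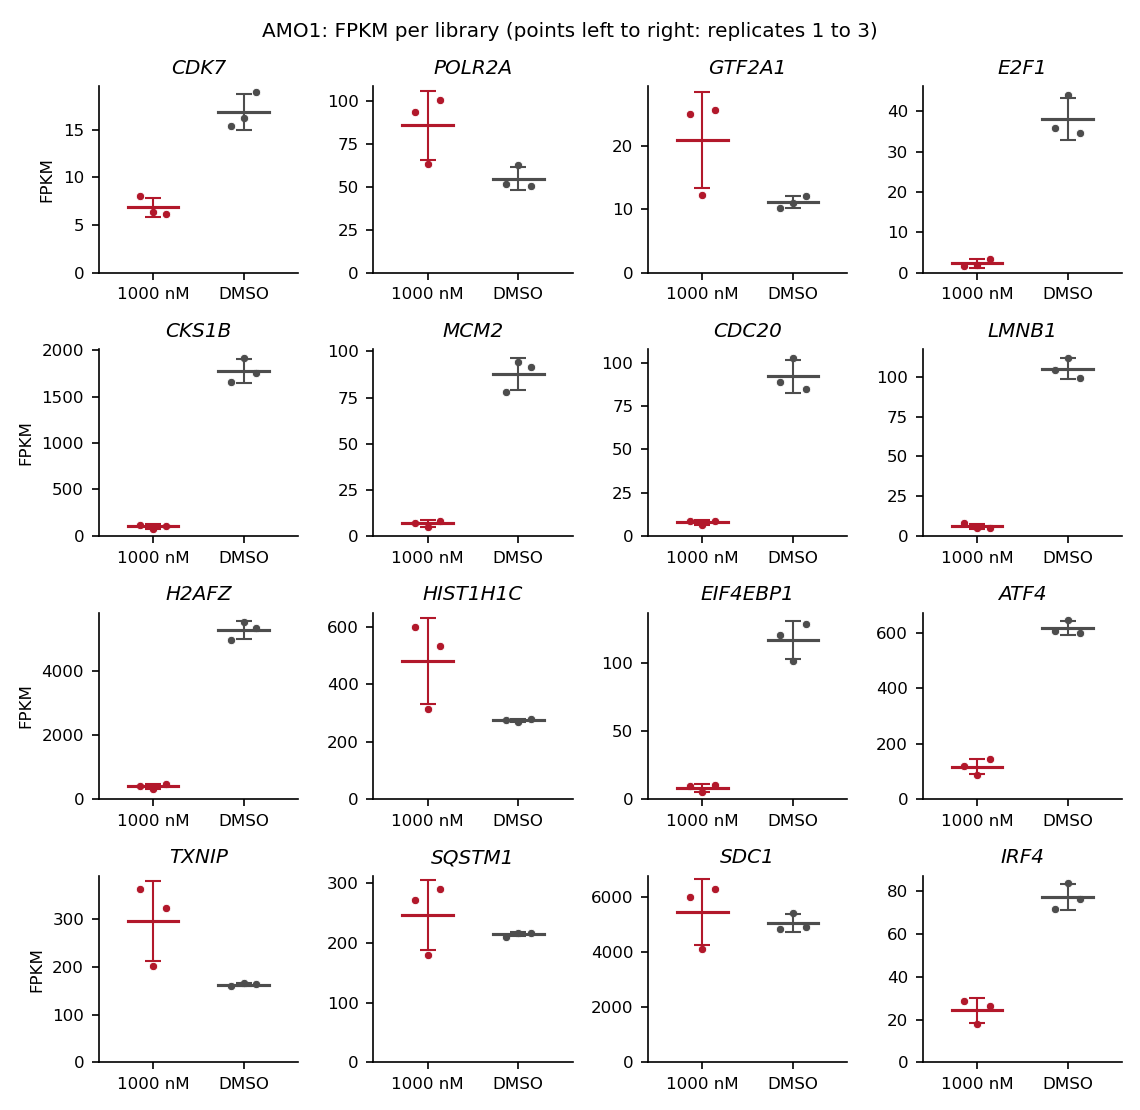
FPKM (y axis, from 0) of 16 genes in each library of AMO1 at 1000 nM YKL-5-124 (red, left) and in DMSO (grey, right); horizontal lines are means and error bars SD (n = 3). The groups are far apart for E2F1, CKS1B, MCM2, CDC20, LMNB1 and H2AFZ, lie in the opposite order for POLR2A, GTF2A1, HIST1H1C and TXNIP, and overlap for SQSTM1 and SDC1.

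The 4 lists with the lowest median relative changes were those of replication and mitosis. E2F1, the activator of genes for DNA replication, had 1.56, 1.84 and 3.45 FPKM at 1000 nM and 35.8, 44.1 and 34.5 FPKM in DMSO (deposited −3.61, SE 0.25, adjusted p = 7.09e-08; relative −2.80). FOXM1 had 0.739, 0.7801 and 1.28 FPKM at 1000 nM and 15.3, 16.7 and 13.1 FPKM in DMSO, and MYBL2, its partner on mitotic genes, 46.5, 26.97 and 38.997 FPKM at 1000 nM and 228, 255 and 239.5 FPKM in DMSO. The 2 groups were far apart for all 3 factors, with deposited changes of −3.06 for FOXM1 and −2.68 for MYBL2. RBL2, the p130 protein that holds these genes silent in resting cells, did not share the fall: it had 2.39, 2.08 and 3.75 FPKM at 1000 nM and 2.67, 2.99 and 1.67 FPKM in DMSO, which overlap, and was higher on the relative scale (0.81, adjusted p = 0.00595). Of 17 tested E2F, RB and MuvB genes, 15 were lower on the deposited scale, and 1 was higher and 10 were lower on the relative scale.

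The promoters of 4 of the fallen genes are shown because E2F factors, the MuvB complex and the CCAAT-binding factor NF-Y are known to act through short letters there. They are the 150 bases before the RefSeq start site (GRCh38.p14), read 5′ to 3′ on the gene's strand. Capitals mark CCAAT or its complement ATTGG, the cell cycle homology region TTTGAA or TTCGAA, and the E2F letters TTTGGCGC, TTTCCCGC, TTTCGCGC or TTTGCCGC, on either strand. CDC20 lies at chr1:43358831-43358980 (+), CCNB1 at chr5:69167000-69167149 (+), E2F1 at chr20:33686386-33686535 (−) and MCM7 at chr7:100101398-100101547 (−). MCM7 was chosen after its values were seen.
CDC20: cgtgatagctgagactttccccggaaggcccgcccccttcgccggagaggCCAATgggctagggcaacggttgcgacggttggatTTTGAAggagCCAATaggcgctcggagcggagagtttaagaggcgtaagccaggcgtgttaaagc
CCNB1: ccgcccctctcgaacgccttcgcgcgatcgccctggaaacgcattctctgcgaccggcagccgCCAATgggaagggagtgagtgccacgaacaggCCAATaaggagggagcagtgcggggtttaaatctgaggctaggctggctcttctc
E2F1: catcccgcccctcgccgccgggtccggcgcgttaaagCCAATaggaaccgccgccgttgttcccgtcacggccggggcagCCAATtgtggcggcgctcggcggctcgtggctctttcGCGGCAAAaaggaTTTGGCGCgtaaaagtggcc
MCM7: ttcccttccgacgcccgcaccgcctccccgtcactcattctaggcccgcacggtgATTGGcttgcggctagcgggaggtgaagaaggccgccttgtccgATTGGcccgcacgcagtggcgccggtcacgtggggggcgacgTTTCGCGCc
Within 250 bases before the start, the homology region letters were found in 26 of 57 mitotic genes with a promoter in the table (45.6%), in 9.67% of the 8387 tested genes with one and in 14.6% of all 27305 promoters. CCAAT was found in 43 of those 57 (75.4%), in 36.4% of tested genes and in 33% of all promoters. The E2F letters were found in 14 of 60 replication genes (23.3%), in 4.75% of tested genes and in 2.79% of all promoters. Over all tested genes, 39.3% of the 341 with both the homology region and CCAAT letters were lower on the relative scale, against 24.4% of the rest, and 34.2% of the 398 with E2F letters, against 24.5% of the rest. These groups include the fallen cell-cycle genes themselves. A match of letters is a description, not a site or a cause, and no match says only that these letters are not in the window.

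The regulators of the entry into the cell cycle followed. CKS1B, a small protein that binds cyclin-dependent kinases and helps destroy their inhibitor p27, had 121, 74.6 and 110.2 FPKM at 1000 nM and 1658, 1918 and 1753 FPKM in DMSO (deposited −4.14, SE 0.21, adjusted p = 5.08e-09; relative −3.17). Cyclin E1 (CCNE1) had 13.8 ± 4.82 FPKM at 1000 nM and 67.97 ± 8.91 FPKM in DMSO (relative −1.32), and cyclin D2 (CCND2) 30.9 ± 10.6 FPKM at 1000 nM and 86.4 ± 6.06 FPKM in DMSO (relative −0.56). CDKN1A, the p21 inhibitor of these kinases, had 170.1, 114 and 208 FPKM at 1000 nM and 161, 177 and 148 FPKM in DMSO. Its groups overlap, it was not called on the deposited scale (adjusted p = 0.945), and it was higher on the relative scale (0.95, adjusted p = 4.73e-05). In this list of 19 genes 15 were lower on the deposited scale, and 3 were higher and 11 lower on the relative scale.

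Genes that license and copy DNA fell almost as a block. MCM2, a subunit of the replicative helicase, had 7.24, 4.91 and 8.12 FPKM at 1000 nM and 77.9, 94.2 and 91.4 FPKM in DMSO (deposited −3.54, adjusted p = 2.04e-08; relative −2.63). PCNA, the sliding clamp of the replication fork, had 19.3, 8.76 and 14.998 FPKM at 1000 nM and 187, 179 and 205 FPKM in DMSO (deposited −3.70), and geminin (GMNN), which keeps origins from firing again, 5.76, 3.01 and 5.62 FPKM at 1000 nM and 62.9, 67.7 and 68.4 FPKM in DMSO (deposited −3.58). No treated library reached a DMSO library for any of them. MCM7, whose promoter is printed above, had 9.78 ± 1.85 FPKM at 1000 nM and 161 ± 8.59 FPKM in DMSO (relative −3.000). All 19 tested licensing and MCM genes were lower on the deposited scale and 16 on the relative scale, with median changes of −2.71 and −1.86. For the replication fork the counts were 36 of 37 and 33, and for the supply of DNA precursors 11 of 13 and 9. POLD4, the smallest subunit of DNA polymerase delta, was the exception at the fork. It had 13.3, 8.496 and 13.98 FPKM at 1000 nM and 7.87, 8.35 and 7.25 FPKM in DMSO, without overlap, and rose on both scales (deposited 0.52, adjusted p = 0.0368; relative 1.40, adjusted p = 2.09e-06). Leaving out any library other than treated replicate 2 took away the deposited call (0.40 to 0.57, adjusted p 0.0615 to 0.127), not the relative one. In the precursor list thymidine kinase TK1 had 4.45 ± 1.63 FPKM at 1000 nM and 47.99 ± 2.69 FPKM in DMSO (relative −2.35), while SAMHD1, which breaks precursors down, had 0.818 ± 0.311 FPKM at 1000 nM and 1.12 ± 0.224 FPKM in DMSO and was not called on either scale.

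Mitotic genes fell with few exceptions. CCNB1, the cyclin that drives mitotic entry, had 5.23, 5.03 and 6.72 FPKM at 1000 nM and 59.5, 56.2 and 59.4 FPKM in DMSO (deposited −3.16, relative −2.27). The polo-like kinase PLK1 had 5.88, 3.06 and 6.498 FPKM at 1000 nM and 63.2, 68.8 and 55.2 FPKM in DMSO, and survivin (BIRC5), a chromosomal passenger, 6.47, 4.56 and 7.37 FPKM at 1000 nM and 68.6, 79.5 and 75.9 FPKM in DMSO. All 3 genes were several-fold lower in every treated library than in any DMSO library (relative changes −2.53 for PLK1 and −2.52 for BIRC5). CDC20, which starts anaphase as an activator of the anaphase-promoting complex, had 8.56, 6.36 and 8.602 FPKM at 1000 nM and 89.004, 103 and 84.6 FPKM in DMSO (relative −2.49, adjusted p = 1.82e-06). FZR1, the activator that takes its place in G1, had 2.98 ± 0.676 FPKM at 1000 nM and 3.95 ± 0.375 FPKM in DMSO, was not called on the deposited scale and was higher on the relative scale (0.42, adjusted p = 0.0181), but not without treated replicate 3 or DMSO replicate 3 (0.39 and 0.40, adjusted p = 0.0546 and 0.0554). All 21 mitotic kinase and entry genes were lower on both scales. Of 46 spindle, kinetochore and mitotic exit genes, 44 were lower on the deposited scale, and 43 were lower and 1 was higher on the relative scale.

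Members of some pairs of related genes parted on the relative scale. TOP2A, the topoisomerase of mitotic chromosomes, had 8.19 ± 1.88 FPKM at 1000 nM and 194 ± 18.1 FPKM in DMSO (relative −3.51). TOP2B, the form that resting cells also use, had 20.4, 13.4 and 22.8 FPKM at 1000 nM and 26.5, 28.7 and 24.97 FPKM in DMSO, fell on the deposited scale (−0.51, adjusted p = 0.0442) and was higher on the relative scale (0.42, adjusted p = 0.00173). EZH2, the Polycomb methyltransferase of dividing cells, had 4.33 ± 0.569 FPKM at 1000 nM and 23.99 ± 4.08 FPKM in DMSO (relative −1.35), and EZH1, its counterpart in resting cells, 4.07 ± 0.835 FPKM at 1000 nM and 4.84 ± 0.675 FPKM in DMSO (relative 0.58). DNMT1, which copies DNA methylation after replication, had 19.1 ± 6.37 FPKM at 1000 nM and 73.9 ± 8.05 FPKM in DMSO (relative −1.003), and DNMT3A, which sets new methylation, 1.43 ± 0.139 FPKM at 1000 nM and 1.28 ± 0.481 FPKM in DMSO (relative 0.67). All 6 changes were called on the relative scale, and the members of each pair had opposite signs there. Divided by summed FPKM instead, the 6 genes kept these signs. With factors over all genes, TOP2B (−0.33) and EZH1 (−0.05) turned negative. DNMT3A was not called on the relative scale without treated replicate 2, DMSO replicate 2 or DMSO replicate 3 (0.53 to 0.58), and TOP2B lost its deposited call when any 1 of the DMSO replicates was left out (−0.56 to −0.46). The differences within pairs were not tested as such.

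Of 23 condensin, cohesin and topoisomerase genes 22 were lower on the deposited scale and 17 on the relative scale, and of 46 DNA repair and checkpoint genes 38 and 33. BRCA1, a protein of homologous repair, had 2.14, 1.27 and 2.49 FPKM at 1000 nM and 15.7, 16.9 and 13.3 FPKM in DMSO, without overlap (relative −1.70). XPC, which recognises ultraviolet damage, was higher on the relative scale (6.14 ± 1.52 FPKM at 1000 nM and 7.82 ± 1.18 FPKM in DMSO, 0.53, adjusted p = 0.00529). Among 34 DNA and histone methylation genes 7 were higher and 15 lower on the relative scale, with WHSC1 (NSD2), a histone methyltransferase altered in some myelomas, at 1.86, 1.36 and 1.33 FPKM at 1000 nM and 13.3, 16.1 and 13.01 FPKM in DMSO (relative −1.83, adjusted p = 5.57e-06). Among 41 histone acetylation and remodelling genes the counts were 11 higher and 12 lower.

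Histone genes split. H2AFZ, the replacement histone H2A.Z, had 423, 305 and 469.6 FPKM at 1000 nM and 4972, 5523 and 5342 FPKM in DMSO (deposited −3.74, adjusted p = 7.76e-09; relative −2.77). The chromatin protein HMGB2 had 31.9, 9.48 and 18.2 FPKM at 1000 nM and 252, 233 and 302 FPKM in DMSO (deposited −3.80), and SLBP, the protein that binds the end of replication-dependent histone messages, 5.94, 2.92 and 5.12 FPKM at 1000 nM and 28.1, 27.2 and 27.9 FPKM in DMSO (deposited −2.38). These 3 genes were lower in every treated library, as were 11 of 12 replacement histone and HMG genes by the deposited test (9 on the relative scale). HIST1H1C, the linker histone H1.2, went the other way, with 598, 313 and 534 FPKM at 1000 nM and 276, 268 and 279 FPKM in DMSO (deposited 0.76, adjusted p = 0.00952; relative 1.73). HIST2H2BE had 65.5, 45.9 and 70.1 FPKM at 1000 nM and 12.5, 13.9 and 11.98 FPKM in DMSO (deposited 2.14), while HIST1H4C had 138, 69.3 and 128 FPKM at 1000 nM and 2123, 2040.3 and 2437 FPKM in DMSO (deposited −4.34). Neither gene's groups overlapped. Of 32 replication-dependent histone genes 3 were higher and 22 lower on the deposited scale, and 7 higher and 14 lower on the relative scale. Most replication-dependent histone messages end without poly(A), and a library primed on poly(A) records only their polyadenylated copies. Many of these genes are near-identical, so reads may be shared among them.

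The nuclear lamina and the cytoskeleton held further deep falls. LMNB1, lamin B1 of the nuclear lamina, had 8.01, 4.82 and 5.23 FPKM at 1000 nM and 104, 112 and 99.3 FPKM in DMSO (deposited −3.95, adjusted p = 8.43e-09; relative −3.04). The tubulin gene TUBA1B had 208, 158 and 313 FPKM at 1000 nM and 2468, 2719 and 2491 FPKM in DMSO, and STMN1, which loosens microtubules, 88.9, 66.1 and 104 FPKM at 1000 nM and 597, 696 and 654 FPKM in DMSO. Every treated value of these genes was far below every DMSO value (relative changes −2.58 and −1.95), and reads of TUBA1B may be shared with its close copies. Beta actin (ACTB) fell by 0.47 on the relative scale, from an abundant level (183 ± 52.6 FPKM at 1000 nM and 485 ± 11.3 FPKM in DMSO). Of 34 cytoskeletal genes 8 were higher and 17 lower on the relative scale.

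**Figure D4:**
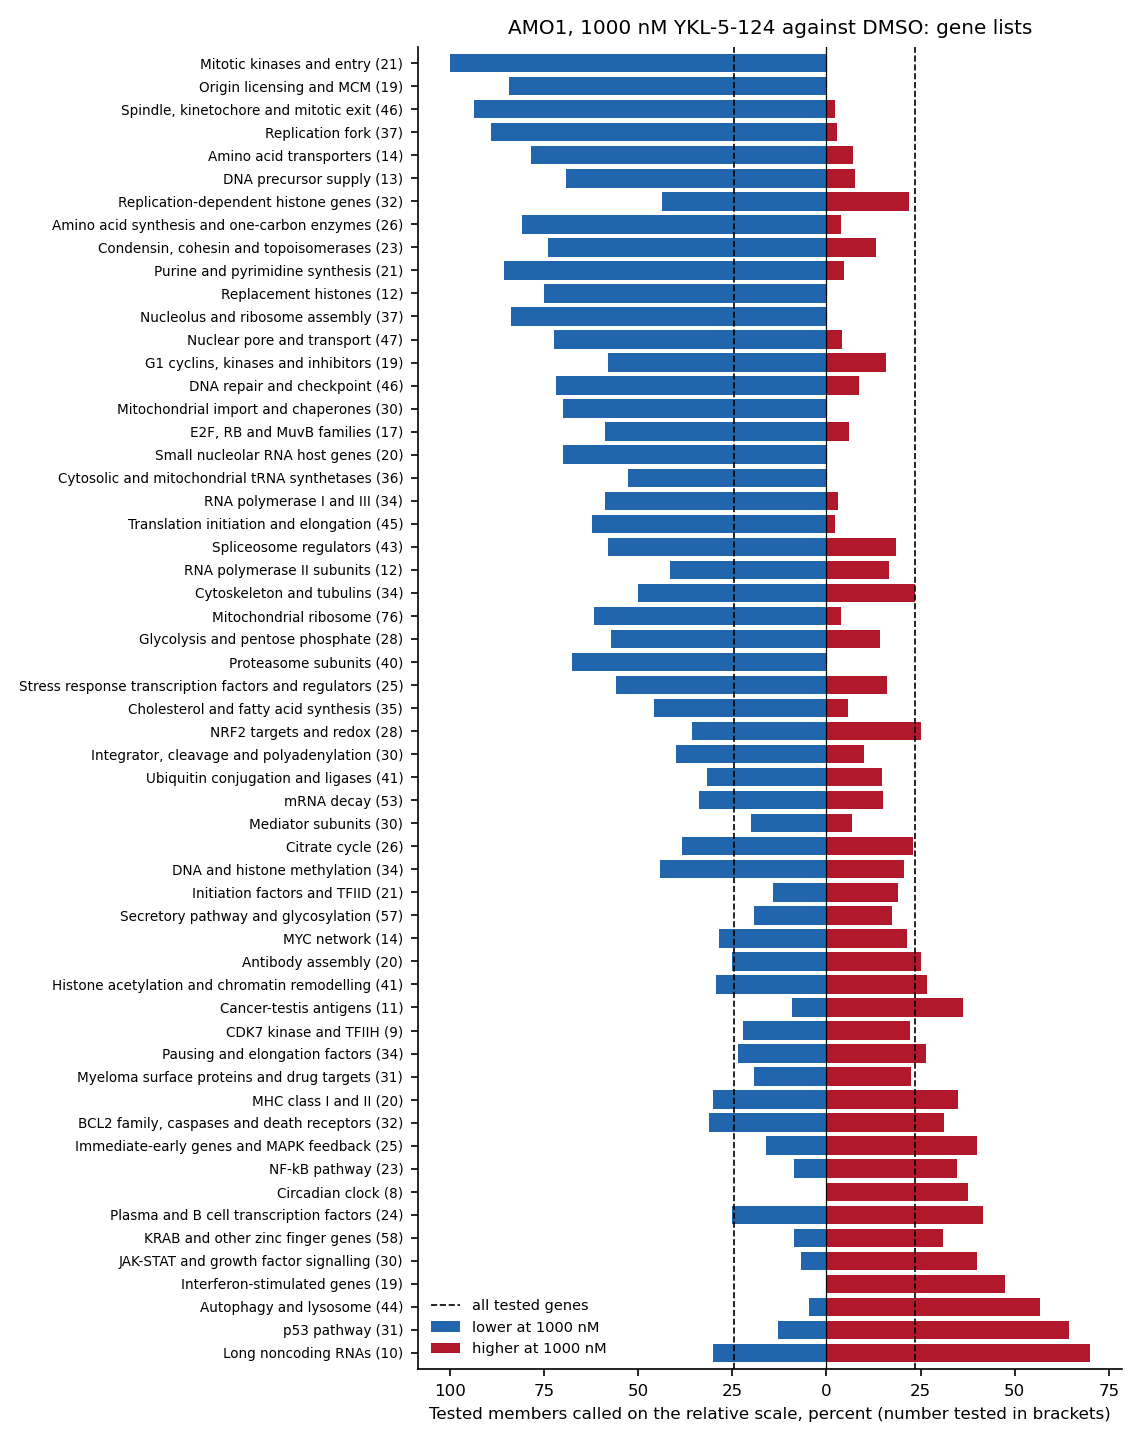
Percent of tested members (x axis) called lower (blue, left) and higher (red, right) on the relative scale, 1000 nM YKL-5-124 against DMSO, for each gene list (number tested in brackets), ordered by median change. Dashed lines are the shares over all tested genes, 24.5% lower and 23.5% higher; all 21 mitotic kinase and entry genes were lower, and 25 of 44 autophagy and lysosome genes were higher.

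Genes of protein synthesis and its supply fell more than the median gene. EIF4EBP1, which holds back cap-dependent translation, had 9.58, 5.04 and 10.3 FPKM at 1000 nM and 119.9, 101 and 128 FPKM in DMSO (deposited −3.70, adjusted p = 4.20e-08; relative −2.79). ATF4, the transcription factor of the amino acid response, had 119, 88.8 and 143 FPKM at 1000 nM and 606, 645 and 601 FPKM in DMSO (relative −1.45, adjusted p = 2.47e-06). The glutamine transporter SLC1A5 had 23.04, 14.1 and 27.9 FPKM at 1000 nM and 233, 253 and 229 FPKM in DMSO (relative −2.502). The groups were separate for all 3. Among 14 amino acid transporters 13 were lower on the deposited and 11 on the relative scale. SLC7A5, which brings in leucine, had 16.98 ± 4.65 FPKM at 1000 nM and 105 ± 7.55 FPKM in DMSO (relative −1.65), whereas SLC36A1, which exports amino acids from lysosomes, was higher on the relative scale (2.05 ± 0.424 FPKM at 1000 nM and 2.45 ± 0.525 FPKM in DMSO, 0.49, adjusted p = 0.00615). Of 26 amino acid synthesis and one-carbon enzymes 25 and 21 were lower, with PHGDH, the first enzyme of serine synthesis, at 1.87 ± 0.9297 FPKM at 1000 nM and 20.1 ± 1.59 FPKM in DMSO (relative −2.15). Of 36 tRNA synthetases all were lower on the deposited and 19 on the relative scale, GARS for glycine among them (13.2 ± 3.78 FPKM at 1000 nM and 93.2 ± 5.61 FPKM in DMSO, relative −1.83).

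Most stress regulators that accompany ATF4 fell: in that list of 25, 21 were lower and 2 higher on the deposited scale, and 14 lower and 4 higher on the relative scale. HSPA5, the main chaperone of the endoplasmic reticulum, had 203, 132 and 197 FPKM at 1000 nM and 752, 868 and 713 FPKM in DMSO (relative −1.18, adjusted p = 8.36e-07). SESN1, a sestrin that restrains growth signalling under stress, had 32.6, 18.9 and 27.3 FPKM at 1000 nM and 12.5, 15.9 and 12.1 FPKM in DMSO, and rose on both scales (deposited 0.89, adjusted p = 0.00262; relative 1.80).

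Ribosome assembly and translation genes fell in nearly every case. All 37 nucleolar genes and all 45 translation factors were lower on the deposited scale, and 31 and 28 of them on the relative scale. NPM1, the abundant nucleolar phosphoprotein, had 189.6, 118 and 183 FPKM at 1000 nM and 802, 919 and 806 FPKM in DMSO (relative −1.42). The helicase EIF4A1 had 193 ± 37.4 FPKM at 1000 nM and 792 ± 47.8 FPKM in DMSO (relative −1.08), while its paralog EIF4A2 fell with the median gene (46.8 ± 16.01 FPKM at 1000 nM and 93.7 ± 5.12 FPKM in DMSO, deposited −1.05, relative −0.09, not called on the relative scale). Mitochondrial counterparts behaved alike in number: 75 of 76 mitochondrial ribosome genes and 30 of 30 import and chaperone genes were lower on the deposited scale, and 47 and 21 on the relative scale. After division by summed FPKM, 15 mitochondrial ribosome genes were higher and 17 lower, 2 import and chaperone genes were higher and 9 lower, and 10 translation factors were higher and 12 lower. Mitochondrially encoded genes were not analysed here. Purine and pyrimidine synthesis had 21 of 21 and 18 lower, with PRPS2, which makes the shared ribose precursor, at 8.14, 5.54 and 10.8 FPKM at 1000 nM and 64.98, 79.6 and 66.97 FPKM in DMSO (relative −2.09).

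In energy metabolism 24 of 28 glycolysis and pentose phosphate genes (85.7%) and 21 of 26 citrate cycle genes (80.8%) were lower on the deposited scale, against 65.7% of all tested genes. On the relative scale 4 glycolysis genes were higher (14.3%, against 23.5% of all tested genes) and 16 lower (57.1%, against 24.5%). For the citrate cycle 6 were higher (23.1%) and 10 lower (38.5%), and the list median was near that of all genes (−0.06). Lactate dehydrogenase A (LDHA) had 18.3, 11.3 and 22.3 FPKM at 1000 nM and 111, 115 and 111 FPKM in DMSO (relative −1.74), and hexokinase 2 (HK2) 3.202 ± 1.01 FPKM at 1000 nM and 17.3 ± 1.65 FPKM in DMSO (relative −1.33). TXNIP, which restrains glucose uptake, rose: it had 363, 203 and 324 FPKM at 1000 nM and 159, 166 and 164 FPKM in DMSO (deposited 0.82, adjusted p = 0.00575; relative 1.78). It was the only member of the glycolysis list called higher on the deposited scale.

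Nuclear pore and transport genes fell. CSE1L, which returns importin alpha to the cytoplasm, had 8.02, 5.91 and 8.59 FPKM at 1000 nM and 71.4, 81.2 and 74.8 FPKM in DMSO (relative −2.27, adjusted p = 3.74e-07). NXF1, the export receptor of messenger RNA, had 8.58, 4.93 and 8.28 FPKM at 1000 nM and 6.08, 7.57 and 6.83 FPKM in DMSO, which overlap, and was higher on the relative scale (0.90, adjusted p = 0.000213), but not called with factors over all genes (0.22, adjusted p = 0.316). Of 47 nuclear pore and transport genes 45 were lower on the deposited and 34 on the relative scale. Splicing regulators had 8 higher and 25 lower of 43 on the relative scale, with SRSF1 at 69.1 ± 17.3 FPKM at 1000 nM and 291 ± 25.7 FPKM in DMSO (relative −1.13) and the kinase CLK3 at 13.3 ± 2.02 FPKM at 1000 nM and 11.3 ± 3.17 FPKM in DMSO (relative 1.14). Messenger RNA decay genes had 8 higher and 18 lower of 53, and within them EXOSC8, a subunit of the RNA exosome, had 2.41, 2.05 and 3.33 FPKM at 1000 nM and 31.7, 29.2 and 33.2 FPKM in DMSO (relative −2.36). ZFP36, a decay factor for unstable messages, varied among treated libraries, with 25.03, 2.22 and 7.72 FPKM in replicates 1, 2 and 3 against 25.4, 29.9 and 28.96 FPKM in DMSO. It fell on the deposited scale (adjusted p = 0.0164) and was not called on the relative scale (adjusted p = 0.294). Without treated replicate 2 it was not called on the deposited scale (−0.95), and without treated replicate 1 it was called lower on the relative scale (−1.53).

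Noncoding RNAs parted by kind. All but 2 of the 20 tested small nucleolar RNA host genes were lower on the deposited scale, and 14 were lower and 0 higher on the relative scale, with SNHG1 at 24.8, 11.9 and 14.4 FPKM at 1000 nM and 99.3, 119 and 108 FPKM in DMSO (relative −1.72). HOTAIRM1, a noncoding RNA of the HOXA locus, rose, with 68.6, 57.4 and 73.5 FPKM at 1000 nM and 33.1, 43.2 and 40.96 FPKM in DMSO (deposited 0.75, adjusted p = 0.00355; relative 1.71). CRNDE, often raised in dividing tumour cells, fell (4.96 ± 2.74 FPKM at 1000 nM and 45.5 ± 6.18 FPKM in DMSO, relative −2.22). MALAT1 had 92.01, 58.9 and 111 FPKM at 1000 nM and 108, 117 and 105 FPKM in DMSO and was higher on the relative scale only (0.59, adjusted p = 0.000697). Of 10 long noncoding RNAs in the list 7 were higher and 3 lower on the relative scale.

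**Figure D5:**
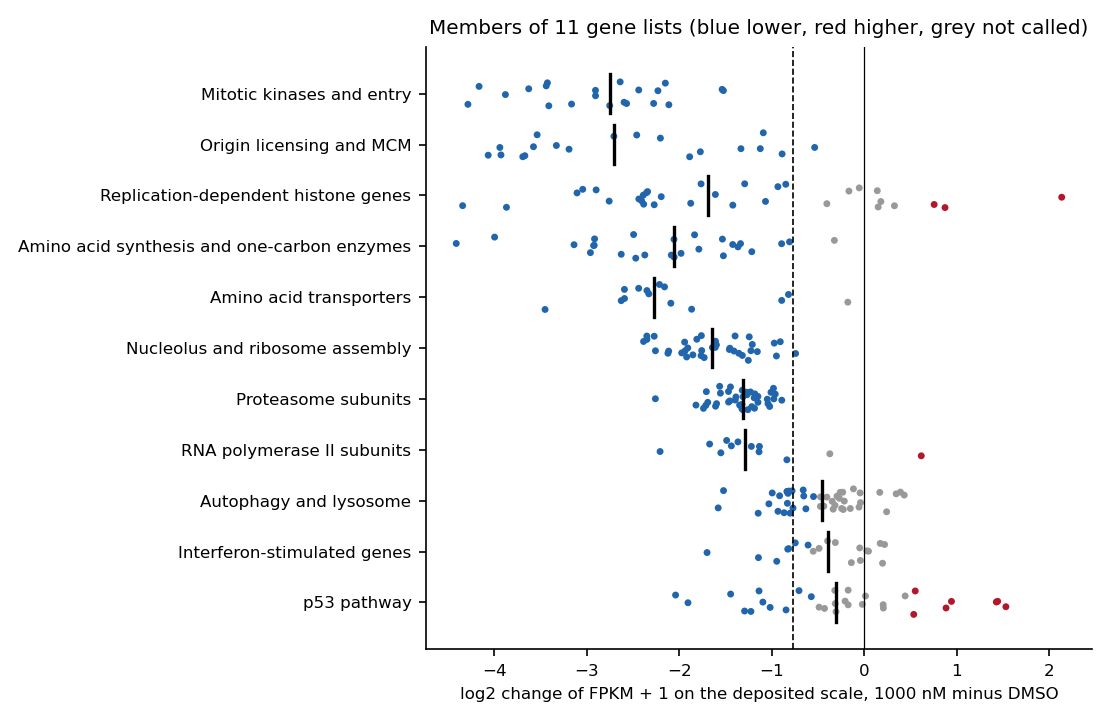
Log2 change of FPKM + 1 on the deposited scale (x axis, 1000 nM YKL-5-124 minus DMSO) for each tested member of 11 gene lists; black bars are list medians, the dashed line is the median of all tested genes (−0.77) and the solid line is no change. Mitotic and licensing genes reach beyond −4, whereas the lysosome, interferon and p53 lists lie to the right of the dashed line by their medians.

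Lysosomal genes stood above the median gene. SQSTM1, the autophagy receptor p62, had 272, 179 and 290.2 FPKM at 1000 nM and 211, 218 and 217 FPKM in DMSO. LAMP1, a lysosomal membrane protein, had 203, 114 and 187 FPKM at 1000 nM and 184, 204 and 197 FPKM in DMSO. For both the groups overlap, with replicate 2 lowest in the treated group, neither was called on the deposited scale (adjusted p = 0.479 and 0.318), and both were higher on the relative scale (1.14 and 0.71, adjusted p = 2.59e-06 and 0.000306). CTSA, the protective protein of lysosomal enzymes, had 5.38, 4.77 and 7.99 FPKM at 1000 nM and 3.77, 4.95 and 3.73 FPKM in DMSO, and was higher on the relative scale (1.24, SE 0.22, adjusted p = 0.00129). CTSB, PSAP and NEU1, named after their values were seen, had relative changes of 1.31, 1.21 and 1.29. CTSS, a cathepsin of antigen processing, was the most lowered member (5.45 ± 2.17 FPKM at 1000 nM and 17.6 ± 1.75 FPKM in DMSO, relative −0.71, adjusted p = 0.00327). Of 44 tested autophagy and lysosome genes none was higher and 20 were lower on the deposited scale, and 25 were higher and 2 lower on the relative scale (medians −0.45 and 0.48). Without treated replicate 2, 4 were higher on the deposited scale, SQSTM1 among them (0.38, adjusted p = 0.00293). Divided by summed FPKM instead, 32 were higher and 0 lower, and with factors over all genes 1 was higher and 10 lower. By those factors LAMP1 was at −0.06, and SQSTM1 (0.36), CTSA (0.59), PSAP (0.44) and NEU1 (0.54) were not called (adjusted p = 0.174, 0.0787, 0.128 and 0.0513). The higher relative calls of these genes, and the balance of calls in this list, therefore depend on the scaling.

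The promoter of CTSA is shown for the CLEAR letters TCACGTGA, at which TFEB and TFE3 are known to bind lysosomal genes. These letters contain the E-box CACGTG. It covers the 150 bases before the RefSeq start at chr20:45891185-45891334 (+, GRCh38.p14), with those letters in capitals.
CTSA: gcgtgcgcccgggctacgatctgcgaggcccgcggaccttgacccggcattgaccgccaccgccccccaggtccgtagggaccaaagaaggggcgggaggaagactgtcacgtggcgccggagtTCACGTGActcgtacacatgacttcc
The letters were found within 250 bases before the start in 5 of 33 autophagy and lysosome genes with a promoter in the table (15.2%), in 1.88% of tested genes and in 0.890% of all promoters. Of 158 tested genes with them 30.4% were higher on the relative scale, against 23.3% of those without. The 158 include the lysosomal genes with these letters, and here too a match is a description, not a site or a cause.

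The proteasome contrasted with the lysosome. All 40 proteasome genes were lower on the deposited scale and 27 on the relative scale, within a narrow range from −2.26 to −0.89 (deposited). PSMB5, the catalytic subunit that myeloma drugs such as bortezomib block, had 199, 128 and 202 FPKM at 1000 nM and 437, 449 and 480.2 FPKM in DMSO (relative −0.42, adjusted p = 0.00177). Divided by summed FPKM, 7 proteasome genes were higher and 4 lower, so the balance of their relative calls depends on the scaling. In ubiquitin conjugation 37 of 41 were lower on the deposited scale (90.2%, against 65.7% of all tested genes). On the relative scale 6 were higher (14.6%, against 23.5%) and 13 lower (31.7%, against 24.5%), with a median of −0.13. The lowest of them was UBE2T, a conjugating enzyme of DNA crosslink repair. It had 32.2, 18.5 and 31.8 FPKM at 1000 nM and 231, 267 and 290.2 FPKM in DMSO (relative −2.29).

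Genes of plasma cell identity moved both ways. SDC1, the plasma cell proteoglycan CD138, had 6002, 4106 and 6296 FPKM at 1000 nM and 4850.3, 5440.1 and 4909 FPKM in DMSO, which overlap (relative 1.06, adjusted p = 2.67e-06). The B cell coactivator POU2AF1 had 165, 107 and 169.8 FPKM at 1000 nM and 157, 181 and 127 FPKM in DMSO (relative 0.88), and PRDM1, which encodes Blimp-1, 15.1, 10.1 and 15.7 FPKM at 1000 nM and 13.9, 17.96 and 16.5 FPKM in DMSO (relative 0.67). None of the 3 was called on the deposited scale, and all 3 were higher on the relative scale. With factors over all genes none of them was called (0.28 for SDC1, 0.11 for POU2AF1 and −0.06 for PRDM1, adjusted p = 0.375, 0.698 and 0.738). IRF4, on which myeloma cells depend, had 28.8, 17.9 and 26.6 FPKM at 1000 nM and 71.9, 84.05 and 76.7 FPKM in DMSO, and fell on both scales (deposited −1.65, adjusted p = 1.59e-05; relative −0.70, adjusted p = 7.96e-05). KLF2, a factor of quiescence and homing, fell further, with 44.4, 14.9 and 29.95 FPKM at 1000 nM and 173, 169 and 176 FPKM in DMSO (relative −1.67), and RUNX1 rose, with 2.69, 2.4001 and 3.23 FPKM at 1000 nM and 0.903, 1.55 and 0.852 FPKM in DMSO (deposited 0.85, adjusted p = 0.00202). Of 24 plasma and B cell factors 2 were higher and 16 lower on the deposited scale, and 10 higher and 6 lower on the relative scale.

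Targets of myeloma therapy and the antibody-making apparatus had list medians near that of all genes (0.09 and 0.02 on the relative scale). The CAR-T target TNFRSF17 (BCMA) had 179, 111 and 174 FPKM at 1000 nM and 392, 472 and 465 FPKM in DMSO (relative −0.57, adjusted p = 0.000853). CD38 had 18.5 ± 5.96 FPKM at 1000 nM and 25.5 ± 0.839 FPKM in DMSO (relative 0.43, higher) and CRBN, the target of lenalidomide, 6.12 ± 2.78 FPKM at 1000 nM and 11.003 ± 1.49 FPKM in DMSO (relative 0.01, not called). Of 31 surface proteins and drug targets 24 were lower on the deposited scale, and 7 were higher and 6 lower on the relative scale. For antibody assembly the counts were 15 of 20, then 5 and 5, with JCHAIN at 847 ± 242 FPKM at 1000 nM and 1924 ± 102 FPKM in DMSO (relative −0.25). JCHAIN was not called there without treated replicate 2 or 3 or DMSO replicate 1 or 3 (−0.26 to −0.19). For the secretory pathway they were 53 of 57, then 10 and 11. The cancer-testis antigens had 8 of 11 lower on the deposited scale, 4 without DMSO replicate 2, and 4 higher and 1 lower on the relative scale.

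Antigen presentation and cytokine signalling were mixed. CIITA, the switch for MHC class II genes, fell and had 4.54, 5.04 and 5.48 FPKM at 1000 nM and 22.5, 29.5 and 22.2 FPKM in DMSO (relative −1.20, adjusted p = 0.00029), while the class I peptide transporter TAP1 was higher on the relative scale (74.9 ± 16.9 FPKM at 1000 nM and 114 ± 14.1 FPKM in DMSO, 0.34). Of 20 MHC genes, whose reads can be shared between copies, 7 were higher and 6 lower. Of 19 interferon-stimulated genes 7 were lower on the deposited scale, and on the relative scale 9 were higher and 0 lower. The NF-kB inhibitor NFKBIA, itself a target of the pathway, had 237, 143 and 238 FPKM at 1000 nM and 164, 185 and 169.6 FPKM in DMSO (relative 1.18), and the chemokine CCL3 fell, with 187, 132 and 255 FPKM at 1000 nM and 786, 836 and 929 FPKM in DMSO (relative −1.22). Of 23 NF-kB pathway genes 8 were higher and 2 lower on the relative scale, and 5 were higher without DMSO replicate 3.

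Interleukin 6 is the main growth signal of myeloma cells. Its receptor IL6R and the inhibitor SOCS1 were the lowest and the highest of 30 JAK-STAT and growth factor genes on the deposited scale. A change of the interleukin 6 axis as a whole was not tested. IL6R fell and had 0.611, 0.954 and 0.9202 FPKM at 1000 nM and 7.802, 8.23 and 7.85 FPKM in DMSO (deposited −2.30, adjusted p = 2.97e-07; relative −1.63). SOCS1, the feedback inhibitor of JAK kinases, had 4.45, 2.28 and 2.799 FPKM at 1000 nM and 0.974, 1.85 and 1.29 FPKM in DMSO, without overlap, and rose (deposited 0.80, adjusted p = 0.0164; relative 1.44), on the deposited scale not without treated replicate 1 (0.59) or DMSO replicate 1 (0.67). The survival kinase PIM2 had 1748 ± 342 FPKM at 1000 nM and 2498 ± 101 FPKM in DMSO, fell on the deposited scale (−0.53) and was higher on the relative scale (0.44, adjusted p = 0.000374). The fall was not called without DMSO replicate 2 or 3 (−0.50 and −0.54). Of 30 JAK-STAT and growth factor genes 12 were higher and 2 lower on the relative scale.

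Among p53 targets and genes of cell death, 7 of 31 p53 pathway genes were higher and 11 lower on the deposited scale, and 20 were higher and 4 lower on the relative scale. ZMAT3, an RNA-binding target of p53, had 9.54, 5.37 and 10.6 FPKM at 1000 nM and 2.15, 2.43 and 2.71 FPKM in DMSO (deposited 1.43, adjusted p = 8.46e-05). GADD45B, a stress-response gene, had 148, 92.9 and 165 FPKM at 1000 nM and 61.3, 72.1 and 70.4 FPKM in DMSO (deposited 0.95, adjusted p = 0.00209), and BTG2, a brake on proliferation, 45.8, 28.5 and 51.2 FPKM at 1000 nM and 26.4, 28.04 and 27.7 FPKM in DMSO (deposited 0.55, adjusted p = 0.0384). In these 3 genes every treated library lay above every DMSO library, but BTG2 lost its deposited call when any library other than treated replicate 2 was left out (0.39 to 0.57). MDM2, the ligase that degrades p53 and is itself a target, went the other way, with 24.2, 16.5 and 26.8 FPKM at 1000 nM and 89.5, 108 and 85.6 FPKM in DMSO (relative −1.09, adjusted p = 4.31e-06).

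Of 32 BCL2 family, caspase and death receptor genes 10 were higher and 10 lower on the relative scale. MCL1, the survival protein of plasma cells, had 977, 574 and 918 FPKM at 1000 nM and 895, 969 and 958 FPKM in DMSO, which overlap (relative 0.74, adjusted p = 9.99e-05). PMAIP1 (NOXA), the antagonist of MCL1, fell, with 8.93, 5.22 and 6.39 FPKM at 1000 nM and 39.1, 49.95 and 42.5 FPKM in DMSO (deposited −2.54, relative −1.63). TNFRSF10D, a decoy receptor of the death ligand TRAIL, rose, with 13.98, 9.24 and 14.4 FPKM at 1000 nM and 2.53, 2.76 and 1.84 FPKM in DMSO (deposited 1.99, adjusted p = 3.75e-06).

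The remaining lists are given briefly, by their counts of higher and lower genes on the relative scale. Immediate-early and MAPK feedback genes had 10 higher and 4 lower of 25 on the relative scale, with FOS at 31.5, 8.39 and 18.8 FPKM at 1000 nM and 4.46, 3.27 and 6.49 FPKM in DMSO (deposited 1.70, SE 0.35, adjusted p = 0.000748). NRF2 and redox genes had 7 and 10 of 28, with the metallothionein MT2A at 4.63 ± 2.33 FPKM at 1000 nM and 31.4 ± 8.53 FPKM in DMSO (relative −1.73). Cholesterol and fatty acid genes had 2 and 16 of 35, led downward by INSIG1, which retains the sterol regulator in the endoplasmic reticulum (23.5, 14.6 and 25.7 FPKM at 1000 nM and 163, 171 and 159 FPKM in DMSO, relative −1.98). The MYC network had 3 and 4 of 14 (21.4% and 28.6%), near the 23.5% and 24.5% of all tested genes. The antagonists MXD1 and MXD4 were higher on the relative scale (0.83 and 1.10), and the lowest member was at −1.13. The clock genes had 3 and 0 of 8, and the numbered zinc finger genes 18 and 5 of 58.

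Beyond the lists, the called genes with the largest rises on the deposited scale included both organelle and surface genes. ENDOG, a mitochondrial nuclease, had 15.97, 10.5 and 33.6 FPKM at 1000 nM and 1.11, 0.869 and 0.114 FPKM in DMSO (deposited 3.53, SE 0.35, adjusted p = 1.69e-06). Its reads may be shared with SPOUT1, which it overlaps. RGS1, a regulator of G-protein signalling in lymphocytes, had 97.4, 48.03 and 102 FPKM at 1000 nM and 23.2, 32.05 and 33.6 FPKM in DMSO (deposited 1.39), and MFGE8, a secreted protein that tags dying cells for uptake, 108, 58.7 and 85.4 FPKM at 1000 nM and 29.9, 35.6 and 27.6 FPKM in DMSO (deposited 1.37). P2RX1, an ATP-gated ion channel, had 7.15, 7.47 and 7.66 FPKM at 1000 nM and 2.28, 2.497 and 1.47 FPKM in DMSO (deposited 1.47), and VPREB3, of the immunoglobulin-assembly pathway of early B cells, 10.5, 6.66 and 12.7 FPKM at 1000 nM and 1.36, 3.38 and 3.61 FPKM in DMSO (deposited 1.55). None of these genes' groups overlapped. Among the largest falls were DHRS2, a mitochondrial reductase, with 5.51, 4.09 and 5.49 FPKM at 1000 nM and 113, 126 and 122 FPKM in DMSO (deposited −4.34, adjusted p = 2.06e-09), and KIAA0101, a partner of PCNA, with 15.6, 8.27 and 16.3 FPKM at 1000 nM and 212, 239 and 263 FPKM in DMSO (deposited −4.10). The meiotic recombinase DMC1 fell with a wide spread, at 0.0611, 1.31 and 7.21 FPKM in replicates 1, 2 and 3 against 34.8, 32.4 and 71.8 FPKM in DMSO (deposited −4.03, SE 0.74, adjusted p = 0.000306).

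Over the 57 lists with tested members, 39 held more lower than higher genes on the relative scale, 15 held more higher than lower and 3 held equal numbers. Divided by summed FPKM, 25 of the 39 kept more lower than higher genes, and 13 turned to more higher and 1 to equal: these 14 were the lists of polymerase II subunits, Mediator, Integrator and 3′-end processing, DNA and histone methylation, acetylation and remodelling, the MYC network, citrate cycle, proteasome, secretory pathway, mRNA decay, ubiquitin, NRF2, cholesterol and cytoskeleton. The 15 with more higher genes kept that balance. With factors over all genes, all 57 lists held more lower than higher genes, those 15 included, the lysosome, p53 and interferon lists among them. Changes by these factors were close to those on the deposited scale, where 65.7% of tested genes were lower. This balance is therefore no separate test of those lists. Leaving out 1 library moved several relative counts of 8 genes or more by over 1.5 times. The lower members of Integrator and 3′-end processing were 6 without treated replicate 3 or DMSO replicate 1. Those of acetylation and remodelling were 7, 5 and 6 without treated replicate 3, DMSO replicate 1 and DMSO replicate 2, and its higher members 7 without DMSO replicate 3. The lower members of the secretory pathway were 7 without treated replicate 2 or 3 and 6 without DMSO replicate 1, and its higher members 6 without DMSO replicate 3. The higher members of the cytoskeleton were 5 without treated replicate 1, DMSO replicate 1 or DMSO replicate 2, and those of mRNA decay 5 without treated replicate 2, DMSO replicate 1 or DMSO replicate 2. Counts under 8 moved by at most 4 genes, zinc fingers and the numbers of single exceptions included. With factors over all genes, the relative changes of CD38, EZH1, FZR1, LAMP1, MALAT1, MCL1, PIM2, PRDM1, SLC36A1, TAP1, TOP2B and XPC turned negative. Those of CDKN1A (0.17), CLK3 (0.42), CTSA, DNMT3A (0.21), HEXIM1 (0.12), MXD1 (0.11), MXD4 (0.40), NEU1, NFKBIA (0.41), NXF1, POU2AF1, PSAP, RBL2 (0.24), SDC1, SOCS1 (0.94) and SQSTM1 stayed positive but were no longer called (adjusted p between 0.0513 and 0.739). EIF4A2 was then called lower (−0.85), and after division by summed FPKM it was called higher (0.30). Without a filter on low values BTG2, CDK12, GTF2A1, PIM2, POLD4, SOCS1, TOP2B and ZFP36 were not called on the deposited scale (adjusted p between 0.0504 and 0.132). Divided by summed FPKM, ACTB, CCND2, CTSS, GTF2H4, PSMB5 and TNFRSF17 were no longer called lower on the relative scale, and JCHAIN turned positive (0.14). Genes named here that overlap another protein-coding gene, whose reads may be counted with it, are CCNH, CDK7, CIITA, CLK3, CRBN, CTSA, ENDOG, EXOSC8, FOXM1, FZR1, MDM2, MXD1, PLK1, RBL2, SAMHD1, SESN1, SLC36A1, SQSTM1, TAF1D, TNFRSF17 and TOP2B.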

How the data were processed

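RNA levels were measured in AMO1 cells by a 3′ poly(A)-primed sequencing protocol. The authors deposited FPKM for 26249 genes and 92 ERCC spike-ins per library, made by alignment with HISAT2 to hg19 and with Cuffnorm, per the submitters' processing notes. Versions, annotation and strand setting are not given in the sources used here. Spike-in sums were nearly equal and gene sums were not, from which rescaling to the spike-ins was inferred. No value was 0, and in each library many genes shared 1 low value. That value was not the minimum of the library. At 1000 nM in replicate 2, 5120 genes were at 0.0785 FPKM and the minimum was 0.0444 FPKM. FPKM gives no depth, so read depth is unknown and no counting interval was made.

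Spike-ins were left out of all tests. Genes with at least 1 FPKM in at least 3 of the 9 AMO1 libraries, the 100 nM group included, were kept (10503). log2(FPKM + 1) was fitted with limma 3.58.1 in R 4.3.3 with a mean-variance trend, contrast 1000 nM minus DMSO, and p-values were adjusted by Benjamini-Hochberg over the 10503 genes at a threshold of 0.05. The relative scale divided each library by its median-ratio size factor. Of the 26249 genes 25089 (95.6%) matched an annotation table, and 1930 of 1951 gene list entries were in the files. Promoters came from RefSeq (GRCh38.p14), matched by symbol.

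Genes named are those marked in the lists, the extreme tested members of each list, and, among protein-coding genes of at least 5 FPKM in a group, the 15 called genes with the largest changes in each direction on each scale. The members and lists were chosen with earlier results of these data known. Alternatives were another pseudocount, another filter or none, only the 6 libraries, a replicate block, division by summed spike-ins or summed FPKM, and each library left out. A few named genes are not reported here.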

Additional observations from a re-analysis of the deposited data

How the results depend on the processing

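Of 1968 pairs of a gene's change and an alternative setting, 1860 kept their direction and their side of the threshold, 72 were no longer called, 6 became called and 30 turned sign. On the deposited scale 128 genes were higher with a filter of 5 FPKM, and between 172 and 379 when 1 library was left out, against 264 in the full data. The median change was −0.48 with 5 added in place of 1, −0.0154 without a filter and −0.86 to −0.62 with 1 library left out. On the relative scale, 452 genes were higher and 4941 lower without a filter, and 4569 were higher and 1247 lower after division by summed FPKM. By that division 25 lists held more lower than higher genes, against 39 in the full data, 57 without a filter, 35 with a filter of 5 FPKM and 37 to 40 with 1 library left out. Leaving out 1 library gave 6067 to 7201 called genes on the deposited scale and 4115 to 4825 on the relative scale, a gene total of 36.8% to 45.2% of DMSO and a spike-in total of 97.4% to 99.5%.

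Without a filter, the size factors were taken over all genes, including those at a shared low value. Relative changes that turned sign there were those of CCNH (−0.67), CD38 (−0.31), CRBN (−0.67), EZH1 (−0.0529), FZR1 (−0.18), LAMP1 (−0.0646), MALAT1 (−0.18), MCL1 (−0.0349), PIM2 (−0.34), PRDM1 (−0.0611), SLC36A1 (−0.042), TAP1 (−0.42), TOP2B (−0.33) and XPC (−0.15). After division by summed FPKM those of CDK7 (0.0598), EIF4A2 (0.30), JCHAIN (0.14) and MNAT1 (0.11) turned. With a filter of 5 FPKM that of EIF4A2 turned (0.0189). When 1 library was left out, the changes that turned, given with their range over the 6 libraries left out, were those of CCNH (relative, −0.0727 to 0.20), CDKN1A (deposited, −0.21 to 0.22), CRBN (relative, −0.12 to 0.24), EIF4A2 (relative, −0.21 to 0.0094) and LAMP1 (deposited, −0.42 to 0). By division by summed spike-ins the deposited change of CDKN1A turned (0.0075). None of the changes that turned when a library was left out or the spike-ins divided was called in the full data. Neither other pseudocount changed a gene's call. The cause of the lost and turned calls was not tested.

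The deviations of same-numbered libraries from their group means correlated at 0.0250, 0.0902 and −0.00157. Those of libraries with other numbers correlated at −0.139 to 0.119. With 3 libraries in each group, these values cannot decide whether the replicate numbers pair the samples. A replicate block gave 6932 called genes on the deposited and 4940 on the relative scale, and BTG2, POLD4 and TOP2B were then not called on the deposited scale (adjusted p = 0.0652, 0.0677 and 0.0824). Fitting only the 6 libraries compared ended the deposited calls of BTG2, PIM2, POLD4, POLR2A and TOP2B (adjusted p = 0.0793, 0.0668, 0.0718, 0.0539 and 0.0978). The groups hold 3 libraries each, replicate 2 at 1000 nM was lowest in total, and read depth is unknown, so small changes and genes near 1 FPKM are the least certain.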

Other observations

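Small structural RNAs had lower median changes than protein-coding genes, whose median was −0.81 on the deposited scale. Of 15 tested small nuclear RNAs, which act mostly in splicing, 12 were lower on the deposited scale (median change −3.01) and 8 on the relative scale. Of 83 tested small nucleolar RNAs, which guide the modification of ribosomal RNA, 32 were lower and 2 higher on the deposited scale (median −1.98), and 16 were lower and 2 higher on the relative scale. By the same test 65.7% of all tested genes were lower on the deposited scale and 24.5% on the relative scale. Small nucleolar RNAs were called lower less often than that, at 38.6% and 19.3%. Small nuclear RNAs were called lower more often, at 80% and 53.3%. These RNAs mostly lack poly(A), on which the libraries were primed, and many lie within introns of other genes, so reads of the host transcripts cannot be told apart from theirs. Of 441 tested long noncoding RNAs, 51 were higher and 123 lower on the deposited scale, against 182 and 6612 of 9619 protein-coding genes.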
